A study of Homo sapiens with 12 samples.

Results

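The response of U87 cells to dBET6 was compared between a JQ1-resistant derivative and the parental line, gene by gene, as the change with dBET6 in resistant cells minus the change with dBET6 in parental cells. The comparison used 8 of the 12 RNA libraries of the series, chosen by line and treatment, 2 in each of 4 groups, and 18469 genes passed the filter on low counts and were tested. The groups were resistant cells with 1000 nM dBET6, resistant cells with DMSO (the solvent), parental cells with 1000 nM dBET6 and parental cells with DMSO, all for 24 h. U87 is an established human glioblastoma line. The 4 other libraries, both lines with 1000 nM JQ1, are used only where stated. The labels do not say whether the resistant line is 1 clone or a pool, nor whether replicates came from separate cultures, so the p-values speak for library-to-library spread, which may be technical.

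BET proteins, among them BRD2 and BRD3, bind acetylated histones and help RNA polymerase II move from initiation into elongation through the kinase complex P-TEFb. JQ1 blocks their acetyl-lysine pockets. dBET6 carries a JQ1-like ligand joined to a ligand of cereblon (CRBN), the substrate receptor of a CUL4-DDB1 ubiquitin ligase, so that BET proteins are degraded by the proteasome. In many tumour cells loss of BET function lowers growth and cell cycle transcripts, raises HEXIM1 or histone transcripts, and alters MYC.

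The 8 libraries held 24732177 to 40388589 estimated counts, with replicate correlations of log2 CPM of 0.982 to 0.994. Mitochondrially encoded mRNA took 3.19% to 3.94% of the counts in dBET6 libraries and 1.46% to 2.13% in DMSO libraries. The 50 most abundant genes took 30.4% to 31.0% of the counts in resistant dBET6, 12.4% to 12.9% in resistant DMSO, 25.8% to 26.5% in parental dBET6 and 12.5% to 12.7% in parental DMSO libraries. The glial and mesenchymal marker VIM stood at 6402 to 11840 CPM of total counts and CD44 at 294 to 761 CPM, whereas the astrocyte marker GFAP was at 0.413 to 1.77 CPM and AQP4 at or near 0. The myeloid gene TYROBP was at 0 in all 8 libraries, and the lymphocyte genes CD3D, CD3E, CD2 and MS4A1 were at or near 0. Other genes of those marker lists appeared with dBET6. CD79A of the lymphocyte list had 2.97 and 2.66 CPM in resistant dBET6, 0.0516 and 0.217 in resistant DMSO, 1.92 and 1.45 in parental dBET6 and 0.0570 and 0.0902 in parental DMSO libraries. The myeloid gene ITGAM had 4.93 and 4.78 CPM in resistant dBET6, 0.0258 and 0.0620 in resistant DMSO, 10.7 and 9.38 in parental dBET6 and 0.0570 and 0 in parental DMSO libraries. CD14 had 1.95 and 0.987 CPM in resistant dBET6, 0.0516 and 0.0310 in resistant DMSO, 8.88 and 6.57 in parental dBET6 and 0.114 and 0.241 in parental DMSO libraries. These levels moved with dBET6 in both lines, and their part in the results was not tested. Of 8 myeloid markers 3 were tested (CSF1R is the third), all 3 were higher with dBET6 in both lines by TMM scaling and 0 had a called difference. Their summed level, most of it CSF1R in DMSO libraries, was 18.6 to 20.1 CPM in resistant dBET6, 22.7 to 23.2 in resistant DMSO, 26.7 to 28.7 in parental dBET6 and 12 to 13.1 in parental DMSO libraries. RNA per cell was not measured, so all levels are relative to the other transcripts of a library.

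The response to dBET6 differed between the lines for 5302 genes (28.7% of those tested, edgeR quasi-likelihood test, adjusted p under 0.05). The difference was positive, meaning a higher value in resistant than in parental cells, for 2772 genes (15%) and negative for 2530 (13.7%), and 738 and 916 of them reached a log2 difference of at least 1 in size. Both lines responded at most genes by TMM scaling. In resistant cells 14224 genes passed the test against DMSO (77%), 6887 higher (37.3%) and 7337 lower (39.7%), and in parental cells 14401 did (78%), 7024 higher (38%) and 7377 lower (39.9%). Across genes the spread of the 2 responses was also alike, with standard deviations of 2.23 in resistant and 2.19 in parental cells on the log2 scale.

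**Figure D1:**
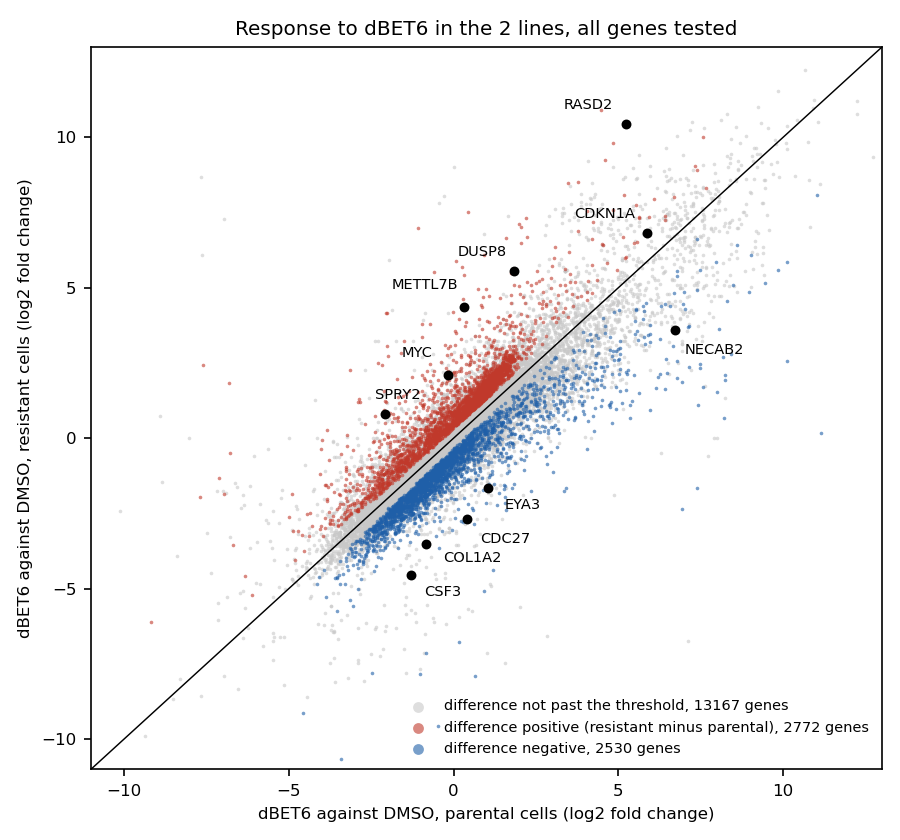
Log2 fold change with dBET6 in resistant cells (vertical) against that in parental cells (horizontal), 1 point per gene tested. Red and blue points are the 2772 genes with a positive and the 2530 with a negative difference, grey points are genes not past the threshold, and the line marks equal responses.

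The split of the calls depends on the scaling. By TMM, which assumes that most genes do not move, 52.3% of the called genes were positive, and the share was 56.3% with median-of-ratios size factors, 59.0% with DESeq2 and 65.0% with limma on the deposited FPKM. It was 12.1% with total counts and 15.0% with scaling to the mitochondrially encoded mRNAs, where the median of all genes stood at -0.48 and -0.34 against -0.02 by TMM. Median-of-ratios size factors, which the DESeq2 fit also uses, make the same assumption as TMM and do not check it. The deposited FPKM summed to more in dBET6 than in DMSO libraries, so they were not scaled to equal totals. They are no check free of that assumption either. The responses moved too. By TMM 48.4% of the genes called in resistant and 48.8% of those called in parental cells were higher with dBET6, and the shares were 22.8% and 30.5% with total counts and 9.15% and 11.5% with mitochondrial scaling. The median response of all genes was then -1.15 in resistant and -0.67 in parental cells with total counts, and -2.14 and -1.80 with mitochondrial scaling. Over all 18469 genes, 888 were positive and 6424 negative with total counts, and 466 and 2643 with mitochondrial scaling. With limma on the deposited FPKM 1776 and 942 of these genes were. All responses and differences below are by TMM unless stated and are therefore relative to the median gene. Counts of a gene list by the other scalings are given beside it, to be read against these counts over all genes. List counts by TMM are to be read against 15% positive and 13.7% negative over all genes. Over the 14282 protein-coding genes tested these shares were 17.9% and 15.8%. Values with the deposited FPKM are from log2(FPKM + 1) over genes with a mean of at least 1 FPKM unless stated.

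By TMM most differences were of size and not of direction. Among genes higher in both lines with dBET6, 1434 had a positive and 410 a negative difference, and among genes lower in both lines 532 had a positive and 1337 a negative one. Opposite directions were called for few genes, 142 higher in resistant and lower in parental cells and 128 the other way. These classes, and the directions of single genes below, are by TMM and were not counted with the other scalings. With total counts the median response of all genes was -1.15 in resistant and -0.67 in parental cells. A small rise by TMM can therefore be a fall there.

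SPRY2, an inhibitor of receptor tyrosine kinase signalling to ERK, moved in opposite directions in the 2 lines by TMM. SPRY2 had 209.8 and 208 CPM in resistant dBET6 libraries, 124 and 118 in resistant DMSO, 17.5 and 15.4 in parental dBET6 and 68.5 and 72.3 in parental DMSO libraries. The resistant dBET6 libraries were the highest and the parental dBET6 libraries the lowest of the 4 groups, without overlap. With dBET6 the log2 change was 0.79 ± 0.09 in resistant and -2.10 ± 0.10 in parental cells, and the SPRY2 difference was 2.89 ± 0.13 (SE, adjusted p = 1.44e-16). EPHA2, an ephrin receptor kinase, was lower in parental cells with dBET6 and slightly higher in resistant cells. EPHA2 had 8.98 and 9.68 CPM in resistant dBET6 libraries, 6.46 and 6.58 in resistant DMSO, 7.72 and 5.73 in parental dBET6 and 29.6 and 27.1 in parental DMSO libraries. Its log2 fold change reached 0.52 ± 0.14 in resistant and -2.07 ± 0.13 in parental cells, and the EPHA2 difference was 2.59 ± 0.20 (SE, adjusted p = 2.52e-11). UBE2K, a ubiquitin-conjugating enzyme, differed between the lines before treatment. UBE2K had 1.53 and 1.39 CPM in resistant dBET6 libraries, 0.246 and 0.269 in resistant DMSO, 7.54 and 6.85 in parental dBET6 and 35.5 and 36.0 in parental DMSO libraries. Its fold in resistant cells rests on very low levels. On the log2 scale the response was 2.49 ± 0.31 in resistant and -2.31 ± 0.13 in parental cells, and the UBE2K difference was 4.80 ± 0.35 (SE, adjusted p = 6.48e-12). HAS1, a hyaluronan synthase, had a log2 difference of 2.35 ± 0.29.

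CDC27, a subunit of the anaphase-promoting complex, moved the other way. CDC27 had 15.9 and 17.0 CPM in resistant dBET6 libraries, 109 and 104 in resistant DMSO, 109 and 124 in parental dBET6 and 91.8 and 84.3 in parental DMSO libraries. The resistant dBET6 libraries lay far below the other 6 libraries, which stood between 84.3 and 124 CPM. Relative to DMSO the log2 change was -2.70 ± 0.11 in resistant and 0.40 ± 0.09 in parental cells, and the CDC27 difference was -3.10 ± 0.14 (SE, adjusted p = 9.23e-17). EYA3, a phosphatase and transcriptional coactivator, fell in resistant cells and rose in parental cells. EYA3 had 11.8 and 11.4 CPM in resistant dBET6 libraries, 36.4 and 36.1 in resistant DMSO, 57.0 and 51.6 in parental dBET6 and 27.7 and 25.2 in parental DMSO libraries. By edgeR the log2 fold change was -1.65 ± 0.11 in resistant and 1.04 ± 0.10 in parental cells, and the EYA3 difference was -2.69 ± 0.15 (SE, adjusted p = 1.75e-14). ZBTB41, a zinc finger gene, had a log2 difference of -3.44 ± 0.20 and ARHGEF26, a guanine exchange factor, one of -2.32 ± 0.19.

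METTL7B, a methyltransferase, rose in both lines by TMM but far more in resistant cells. METTL7B had 900.5 and 919.5 CPM in resistant dBET6 libraries, 41.9 and 46.2 in resistant DMSO, 41.9 and 37.9 in parental dBET6 and 32.1 and 32.0 in parental DMSO libraries. Only the resistant dBET6 group stood apart, and the other 6 libraries lay between 32.0 and 46.2 CPM. This gave a log2 fold change of 4.37 ± 0.10 in resistant and 0.32 ± 0.10 in parental cells, and the METTL7B difference was 4.05 ± 0.13 (SE, adjusted p = 3.73e-20). DUSP8 is a phosphatase of the stress-activated kinases. DUSP8 had 38.6 and 31.2 CPM in resistant dBET6 libraries, 0.586 and 0.917 in resistant DMSO, 5.36 and 5.58 in parental dBET6 and 1.29 and 1.79 in parental DMSO libraries. The log2 fold change was 5.55 ± 0.19 in resistant and 1.83 ± 0.20 in parental cells, and the DUSP8 difference was 3.72 ± 0.29 (SE, adjusted p = 8.36e-11). RASD2, a Ras-related GTPase, and PLEKHA6 were near 0 in resistant DMSO libraries, with differences of 5.20 ± 0.58 and 4.64 ± 0.39. Without resistant DMSO replicate 1 these were 8.65 and 5.95, and without resistant DMSO replicate 2 they were 4.37 and 4.05. The PLEKHA6 call was lost with the deposited FPKM (1.47). PLEKHA6 levels with dBET6 overlapped between the lines, with 42.0 and 36.3 CPM in resistant and 41.5 and 36.6 in parental libraries. The parental DMSO libraries (1.695 and 1.544 CPM) were above the resistant DMSO libraries (0.0945 and 0.0224).

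NECAB2, a neuronal calcium-binding protein, was higher with dBET6 in both lines and more so in parental cells. NECAB2 had 12.5 and 12 CPM in resistant dBET6 libraries, 1.02 and 1.01 in resistant DMSO, 138 and 148 in parental dBET6 and 1.31 and 1.39 in parental DMSO libraries. Neither dBET6 group overlapped the other. With dBET6 the log2 change was 3.59 ± 0.15 in resistant and 6.72 ± 0.13 in parental cells, and the NECAB2 difference was -3.13 ± 0.22 (SE, adjusted p = 4.62e-12). UPB1, the last enzyme of pyrimidine breakdown, had a difference of -3.39 ± 0.33 and IRF5, an interferon regulatory factor, one of -3.05 ± 0.24. FBXW10, an F-box gene, was near 0 with DMSO in both lines and its difference of -4.09 ± 0.61 was -4.98 without parental DMSO replicate 1.

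Among genes lower with dBET6 in both lines, CSF3, the granulocyte growth factor G-CSF, fell further in resistant than in parental cells. CSF3 had 3.39 and 4.11 CPM in resistant dBET6 libraries, 85.6 and 90.9 in resistant DMSO, 48.2 and 47.8 in parental dBET6 and 105 and 132 in parental DMSO libraries. The resistant dBET6 libraries lay far below the other 6 libraries. Its log2 fold change reached -4.55 ± 0.14 in resistant and -1.30 ± 0.10 in parental cells, and the CSF3 difference was -3.25 ± 0.18 (SE, adjusted p = 2.43e-14). COL1A2, a chain of type I collagen, and the cytokine gene IL1B also fell more in resistant cells. COL1A2 had 24.5 and 23.1 CPM in resistant dBET6 libraries, 277 and 272 in resistant DMSO, 173 and 154 in parental dBET6 and 286 and 293 in parental DMSO libraries. On the log2 scale the response was -3.53 ± 0.10 in resistant and -0.82 ± 0.09 in parental cells, and the COL1A2 difference was -2.71 ± 0.13 (SE, adjusted p = 7.68e-16). IL1B had 2.06 and 2.90 CPM in resistant dBET6 libraries, 132 and 134 in resistant DMSO, 2.27 and 2.06 in parental dBET6 and 26.1 and 24.7 in parental DMSO libraries. Relative to DMSO the log2 change was -5.73 ± 0.14 in resistant and -3.55 ± 0.14 in parental cells, and the IL1B difference was -2.18 ± 0.23 (SE, adjusted p = 2.4e-08). The IL1B levels with dBET6 overlapped between the lines, while the resistant DMSO libraries were above the parental DMSO libraries.

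COQ2, of ubiquinone synthesis, had a difference of -2.17 ± 0.32, but its direction turned with the deposited FPKM (0.64), and it was -2.96 without resistant dBET6 replicate 2. ZNF365, FOXC2 (a forkhead factor) and NAGS (of the urea cycle) fell less in resistant cells, with differences of 2.36 ± 0.37, 2.31 ± 0.21 and 1.93 ± 0.32. CCR1, a chemokine receptor, stood at or near 0 with dBET6 in both lines. Its difference of 3.06 ± 1.02 (adjusted p = 0.0236) no longer passed without parental dBET6 replicate 1 (2.04), resistant dBET6 replicate 1 (2.68) or resistant dBET6 replicate 2 (3.38), nor with mitochondrial scaling (2.73), and it was 6.85 without parental dBET6 replicate 2.

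By TMM other genes responded in 1 line only. MYC, the transcription factor of growth and proliferation, was raised in resistant cells, with no change past the threshold in parental cells. MYC had 214 and 222 CPM in resistant dBET6 libraries, 52.6 and 49.5 in resistant DMSO, 59.9 and 52.8 in parental dBET6 and 63.1 and 64.0 in parental DMSO libraries. The resistant dBET6 libraries exceeded the other 6 libraries, which lay between 49.5 and 64.0 CPM. By edgeR the log2 fold change was 2.09 ± 0.09 in resistant and -0.17 ± 0.09 in parental cells, and the MYC difference was 2.26 ± 0.13 (SE, adjusted p = 2.43e-14). MUTYH, a glycosylase of base excision repair, and C21orf58 rose in parental cells alone, with differences of -1.83 ± 0.16 and -1.62 ± 0.16. KATNBL1, related to the microtubule-severing protein katanin, and HKDC1, a hexokinase, fell in resistant cells alone, with differences of -2.49 ± 0.24 and -1.86 ± 0.26. PCDH7, a protocadherin, was near 0 in resistant cells, and its difference of 3.11 ± 0.71 missed the threshold without resistant dBET6 replicate 1 (adjusted p = 0.0566), with log2(FPKM + 0.1) (limma, adjusted p = 0.105) and with no FPKM filter (limma, adjusted p = 0.0661).

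**Figure D2:**
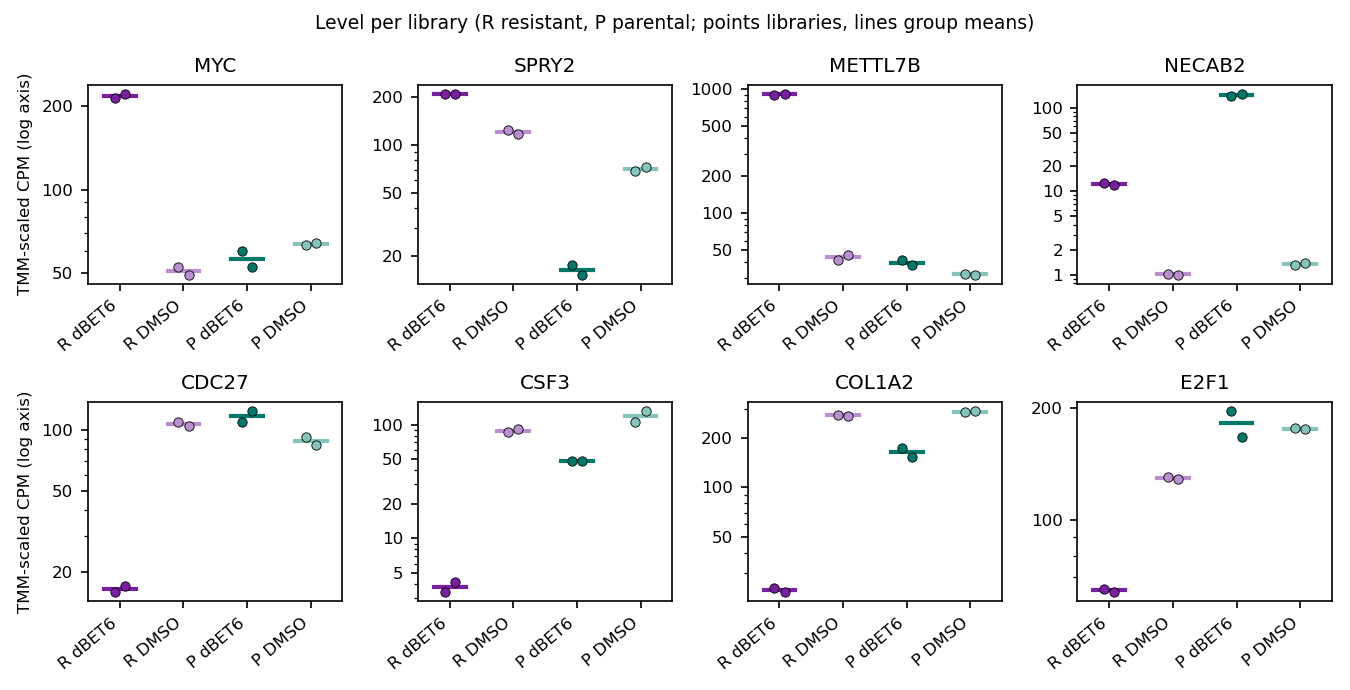
Level of 8 genes in each library in TMM-scaled CPM (log axes, 1 scale per gene), with resistant dBET6, resistant DMSO, parental dBET6 and parental DMSO from left to right. Points are libraries and lines are group means. MYC and METTL7B stand apart in resistant dBET6 on the high side, CDC27, CSF3, COL1A2 and E2F1 on the low side, and NECAB2 is highest in parental dBET6.

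Of the 27 BET proteins and elongation factors, 0 had a positive and 11 a negative difference (15% and 13.7% over all genes), and the median was -0.31 (-0.02 over all genes). The counts were 0 and 23 with total counts (888 and 6424 over all 18469 genes) and 0 and 11 with mitochondrial scaling (466 and 2643). They were 0 and 3 with the deposited FPKM (1776 and 942). BRD2 rose with dBET6 in both lines, with a difference of -0.26 ± 0.12 that did not pass the threshold (adjusted p = 0.128) but did with total counts (-0.72). BRD3 fell in both lines. BRD3 had 8.25 and 8.47 CPM in resistant dBET6 libraries, 44.1 and 44.8 in resistant DMSO, 11.4 and 10.6 in parental dBET6 and 38.9 and 43.3 in parental DMSO libraries. Its difference of -0.51 ± 0.16 (adjusted p = 0.0165) no longer passed with DESeq2 (-0.48), with the deposited FPKM (-0.10) or without either resistant DMSO library, parental dBET6 replicate 1 or parental DMSO replicate 1 (-0.43 to -0.52). HEXIM1, the P-TEFb inhibitor and a common marker of BET inhibition, fell in resistant cells. HEXIM1 had 20.4 and 21.9 CPM in resistant dBET6 libraries, 44.4 and 47.7 in resistant DMSO, 27.8 and 31.3 in parental dBET6 and 27.1 and 34.4 in parental DMSO libraries. This gave a log2 fold change of -1.12 ± 0.11 in resistant and -0.06 ± 0.11 in parental cells, and the HEXIM1 difference was -1.06 ± 0.16 (SE, adjusted p = 6.47e-06). MEPCE, which caps the 7SK RNA that holds P-TEFb with HEXIM1, fell in both lines and more in resistant cells, with a difference of -1.23 ± 0.14. CCNT2, a cyclin of P-TEFb, had one of -1.07 ± 0.20, which was not called with the deposited FPKM (-0.63). Mediator and Integrator subunits gave 2 positive and 12 negative differences among 41, with a median of -0.22 that was -0.12 without parental DMSO replicate 2. Splicing factors gave 2 and 9 among 27, with a median of -0.21 that was -0.34 without resistant dBET6 replicate 1. With total counts these lists gave 1 and 26 and 0 and 22, and with mitochondrial scaling 0 and 11 and 0 and 10.

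The pathway that dBET6 uses moved in both directions. CRBN itself fell in both lines. CRBN had 4.12 and 4.29 CPM in resistant dBET6 libraries, 23.7 and 22.8 in resistant DMSO, 8.37 and 6.51 in parental dBET6 and 21.6 and 19.3 in parental DMSO libraries. The log2 fold change was -2.46 ± 0.15 in resistant and -1.45 ± 0.13 in parental cells, and the CRBN difference was -1.01 ± 0.20 (SE, adjusted p = 0.000284). That call was lost with the deposited FPKM (-0.46). Its ligase partner DDB1 and the ubiquitin-like modifier NEDD8, which activates cullin ligases, rose more in resistant cells, with differences of 0.74 ± 0.13 and 0.80 ± 0.13, and neither passed with mitochondrial scaling (0.42 and 0.48). DCUN1D1, which promotes cullin neddylation, fell more in resistant cells with a difference of -1.18 ± 0.19, a call lost with the deposited FPKM (-0.77). Over the cereblon ligase and NEDD8 list 7 of 23 genes were positive and 6 negative (2 and 12 with total counts, 0 and 6 with mitochondrial scaling, 7 and 1 with the deposited FPKM). Its median of 0.06 has no stable sign, since it ran from -0.05 without parental DMSO replicate 1 to 0.14 without resistant DMSO replicate 1. Of 30 proteasome genes 5 were positive and 9 negative (1 and 23 with total counts, 0 and 9 with mitochondrial scaling). Their median of -0.19 was -0.04 without resistant dBET6 replicate 1, -0.05 without parental DMSO replicate 2, -0.12 without resistant DMSO replicate 1 and -0.30 without resistant dBET6 replicate 2, and 5 members were negative without resistant DMSO replicate 1 or resistant dBET6 replicate 1. PSMA4, a subunit of the core particle, fell in both lines with a difference of -1.31 ± 0.19, and PSMC4, an ATPase of the cap, rose in resistant cells with one of 0.89 ± 0.13, lost with mitochondrial scaling (0.57).

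Genes of DNA replication, many of them controlled by E2F factors, had a median difference of -0.44, with 24 negative and 5 positive among 48 tested members. With total counts 1 member was positive and 38 were negative, with mitochondrial scaling 1 and 23, and with the deposited FPKM 1 and 10. This was the lowest median of the 38 lists with all libraries, but homologous recombination genes were lower without parental DMSO replicate 1, parental dBET6 replicate 1, either resistant DMSO library or resistant dBET6 replicate 2. E2F1 was lower in resistant cells with dBET6 and did not change past the threshold in parental cells. E2F1 had 65.2 and 64.0 CPM in resistant dBET6 libraries, 130.3 and 129 in resistant DMSO, 197 and 168 in parental dBET6 and 177 and 176 in parental DMSO libraries. The resistant dBET6 libraries were the lowest group. With dBET6 the log2 change was -1.01 ± 0.09 in resistant and 0.05 ± 0.09 in parental cells, and the E2F1 difference was -1.05 ± 0.13 (SE, adjusted p = 2.97e-07). E2F2 fell in both lines and more in resistant cells. E2F2 had 3.59 and 3.57 CPM in resistant dBET6 libraries, 25.3 and 22.0 in resistant DMSO, 18.3 and 13.6 in parental dBET6 and 30.6 and 32.7 in parental DMSO libraries. Its log2 fold change reached -2.72 ± 0.16 in resistant and -0.98 ± 0.12 in parental cells, and the E2F2 difference was -1.74 ± 0.20 (SE, adjusted p = 1.5e-07). CDC6, which loads the replicative helicase, had a difference of -1.41 ± 0.16. TK1, the S-phase thymidine kinase, went against the list with 1.14 ± 0.13.

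An E2F site, TTTNNCGC on either strand, was looked for in the 250 bases before the RefSeq gene start (build GRCh38.p14), with a sterol regulatory element, TCACNCCAC, and an antioxidant response element, TGACNNNGC, for the lists of those pathways. These lists and motifs were chosen after the values of the lists were seen. The E2F site occurred in 16 of 42 genes of the list of DNA replication and E2F targets with a promoter entry (38.1%). It occurred in 5.93% of all 27305 promoters. That list holds genes put in it as E2F targets, so its higher share follows in part from its make-up and says nothing about the response differences. The sterol element occurred in 1 of 24 cholesterol and fatty acid genes (4.17%, against 0.875% of all) and the antioxidant element in 3 of 18 NRF2 genes (16.7%, against 11.0%). E2F1 had 4 matches (chr20:33686386-33686635, minus strand), of which the last 2 overlap, E2F2 had 3 (chr1:23531234-23531483, minus strand), of which 2 overlap, and CDC6 had 0 (chr17:40287629-40287878, plus strand). MSMO1 and DHCR7 had 0 matches of the sterol element, and SRXN1, OSGIN1 and AKR1C1 had 0 matches of the antioxidant element. The stretches are shown for E2F1, E2F2 and CDC6 because E2F1 and E2F2 belong to the family that reads the site, with matches in capitals. A match is a description of the letters only. The CDC6 stretch holds tttggcgg, which differs from the E2F pattern only in its last base. Having 0 matches therefore does not show that a promoter lacks such a site.
E2F1: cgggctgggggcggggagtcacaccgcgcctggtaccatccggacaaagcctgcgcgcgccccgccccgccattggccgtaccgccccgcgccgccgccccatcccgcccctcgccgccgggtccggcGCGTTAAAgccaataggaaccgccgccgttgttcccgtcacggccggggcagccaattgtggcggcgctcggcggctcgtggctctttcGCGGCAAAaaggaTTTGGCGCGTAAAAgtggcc
E2F2: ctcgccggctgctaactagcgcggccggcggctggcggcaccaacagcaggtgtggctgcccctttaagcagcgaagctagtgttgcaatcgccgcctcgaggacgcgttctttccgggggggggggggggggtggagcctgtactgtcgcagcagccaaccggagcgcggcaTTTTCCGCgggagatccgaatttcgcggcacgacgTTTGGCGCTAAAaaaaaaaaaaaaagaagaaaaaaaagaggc
CDC6: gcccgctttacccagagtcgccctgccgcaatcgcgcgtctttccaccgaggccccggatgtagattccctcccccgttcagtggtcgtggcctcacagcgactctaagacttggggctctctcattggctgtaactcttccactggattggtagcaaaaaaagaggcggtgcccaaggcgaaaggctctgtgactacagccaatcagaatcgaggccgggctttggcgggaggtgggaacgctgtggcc

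G2/M and mitosis genes gave 2 positive and 13 negative differences among 45, with a median of -0.21 (0 and 28 with total counts, 0 and 13 with mitochondrial scaling). With the deposited FPKM the counts were 3 and 5 and the median -0.01, and without resistant dBET6 replicate 1 the median was -0.13. TOP2A, the topoisomerase of dividing cells, CCNA2, cyclin A2, and CDK1, the mitotic kinase, had differences of -1.14 ± 0.14, -1.21 ± 0.17 and -1.07 ± 0.14. Homologous recombination and Fanconi genes gave 1 positive and 10 negative among 33, with a median of -0.39 (0 and 24 with total counts, 0 and 14 with mitochondrial scaling, 2 and 4 with the deposited FPKM). BARD1, the partner of BRCA1, and the nuclease gene EXO1 had -1.88 ± 0.33 and -1.47 ± 0.23. The BARD1 call was lost with the deposited FPKM (-0.69). CCND1, cyclin D1, rose in both lines, with a difference of -0.13 ± 0.12 that did not pass (adjusted p = 0.45) but did with total counts (-0.59), and its sign turned with the deposited FPKM (0.08). CCND3, cyclin D3, fell in resistant cells only, with a difference of -1.09 ± 0.15. CDK6, a cyclin D kinase, fell in both lines with a difference of 0.32 ± 0.24 (adjusted p = 0.352), and its sign turned with total counts (-0.14).

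Targets of p53 gave 13 positive and 1 negative difference among 27 by TMM, with a median of 0.57 that was 0.36 without parental DMSO replicate 1. With total counts they gave 10 and 11 and a median of 0.11, and with mitochondrial scaling 5 and 1 and 0.25. CDKN1A, the inhibitor p21, rose strongly in both lines. CDKN1A had 13670 and 12750 CPM in resistant dBET6 libraries, 118 and 118 in resistant DMSO, 7178 and 6583 in parental dBET6 and 113 and 123 in parental DMSO libraries. The dBET6 groups did not overlap. On the log2 scale the response was 6.81 ± 0.11 in resistant and 5.87 ± 0.11 in parental cells, and the CDKN1A difference was 0.94 ± 0.13 (SE, adjusted p = 1.02e-06), which missed the threshold with mitochondrial scaling (0.63). TP53I3 is a quinone oxidoreductase. TP53I3 had 388 and 308 CPM in resistant dBET6 libraries, 9.18 and 8.77 in resistant DMSO, 54.3 and 51.7 in parental dBET6 and 7.35 and 9.11 in parental DMSO libraries. Relative to DMSO the log2 change was 5.28 ± 0.13 in resistant and 2.69 ± 0.12 in parental cells, and the TP53I3 difference was 2.59 ± 0.16 (SE, adjusted p = 1.45e-11). GADD45A, a growth arrest and DNA damage gene, and the stress cytokine GDF15 had differences of 1.94 ± 0.13 and 1.87 ± 0.16. In the BCL2 family 2 of 14 were positive and 1 negative (0 and 6 with total counts, 0 and 1 with mitochondrial scaling). By TMM these are 14.3% and 7.14%, against 15% and 13.7% over all genes. The death activators HRK and BBC3 rose in both lines, with differences of 0.63 ± 0.14 and 0.74 ± 0.18, and both calls were lost with total counts (0.17 and 0.28) and mitochondrial scaling (0.30 and 0.42). BCL2L11, which encodes BIM, another death activator, had -1.01 ± 0.24, but its direction turned with the deposited FPKM (0.35). BCL2L1, which encodes the survival protein BCL-XL, fell in both lines with a difference of 0.39 ± 0.17 (adjusted p = 0.0805), and its sign turned with total counts (-0.07). It passed without parental dBET6 replicate 1, resistant DMSO replicate 1 or resistant dBET6 replicate 2 (0.53 in each case). Outside that family, FADD, a death receptor adaptor, had -0.83 ± 0.14 and APAF1, of the apoptosome, 0.92 ± 0.20, and the APAF1 call was lost with total counts (0.46), mitochondrial scaling (0.59) and the deposited FPKM (0.86).

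Cytosolic ribosomal protein genes had the highest median of the 38 lists. By TMM all 71 tested members rose with dBET6 in both lines, 70 of 71 had a positive difference and 0 a negative one, and the median was 0.91. Their median response was 2.16 in resistant and 1.29 in parental cells on the log2 scale. With total counts the median difference was 0.45 with 57 members positive, and with mitochondrial scaling it was 0.59 with 21 positive. The responses themselves depended on the scaling, with 70 members higher and 1 lower in resistant cells and 63 and 0 in parental cells with total counts, and 22 higher and 12 lower in resistant cells and 0 and 45 in parental cells with mitochondrial scaling. RPL13A belongs to the large subunit. RPL13A had 5802 and 6002 CPM in resistant dBET6 libraries, 859 and 899.5 in resistant DMSO, 2847 and 2626 in parental dBET6 and 915 and 927 in parental DMSO libraries. By edgeR the log2 fold change was 2.75 ± 0.09 in resistant and 1.57 ± 0.09 in parental cells, and the RPL13A difference was 1.18 ± 0.12 (SE, adjusted p = 1.27e-08). RPS29, of the small subunit, had 1.27 ± 0.13. Such genes have many processed pseudogenes, between which kallisto divides reads.

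The abundance of these genes moved with the result, since 70 of the 71 had a mean above 100 CPM. Among all 1796 genes at that level 49.2% were positive and 9.30% negative, with a median of 0.33, whereas at 10 to 100 CPM 18.8% were positive and 23.4% negative. Other lists with many members above 100 CPM were the respiratory chain (30 of 47), hypoxia and glycolysis (19 of 31), collagens and matrix (18 of 38) and immediate early genes (13 of 27), with 10 of 30 for cholesterol and fatty acid synthesis. Lists of like abundance did not lean positive. These were heat shock chaperones (14 of 17, median -0.23), NRF2 genes (15 of 24, -0.29), splicing factors (16 of 27, -0.21) and the proteasome (16 of 30, -0.19). Autophagy and lysosome genes (19 of 42) had a median of 0.10 and mitochondrially encoded mRNAs (12 of 13) one of 0.16. The part of abundance in these results was not tested. Transcripts of positive protein-coding genes had a median length of 1944 bases, those of negative genes 2866 and those of all tested protein-coding genes 2189.

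Nuclear-encoded subunits of the respiratory chain gave 27 positive and 3 negative differences among 47, with a median of 0.45 that stood at -0.01 with total counts (10 positive, 11 negative) and 0.14 with mitochondrial scaling (0 positive, 3 negative). COX6A1 and COX8A, subunits of cytochrome c oxidase, had 0.94 ± 0.13 and 0.96 ± 0.13, and neither passed with mitochondrial scaling. The 13 mitochondrially encoded mRNAs gave 1 positive and 0 negative (0 and 3 with total counts, 0 and 1 with mitochondrial scaling). Their median of 0.16 was 0.07 and 0.31 without resistant DMSO replicates 1 and 2, and 0.25 without parental dBET6 replicate 1.

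**Figure D3:**
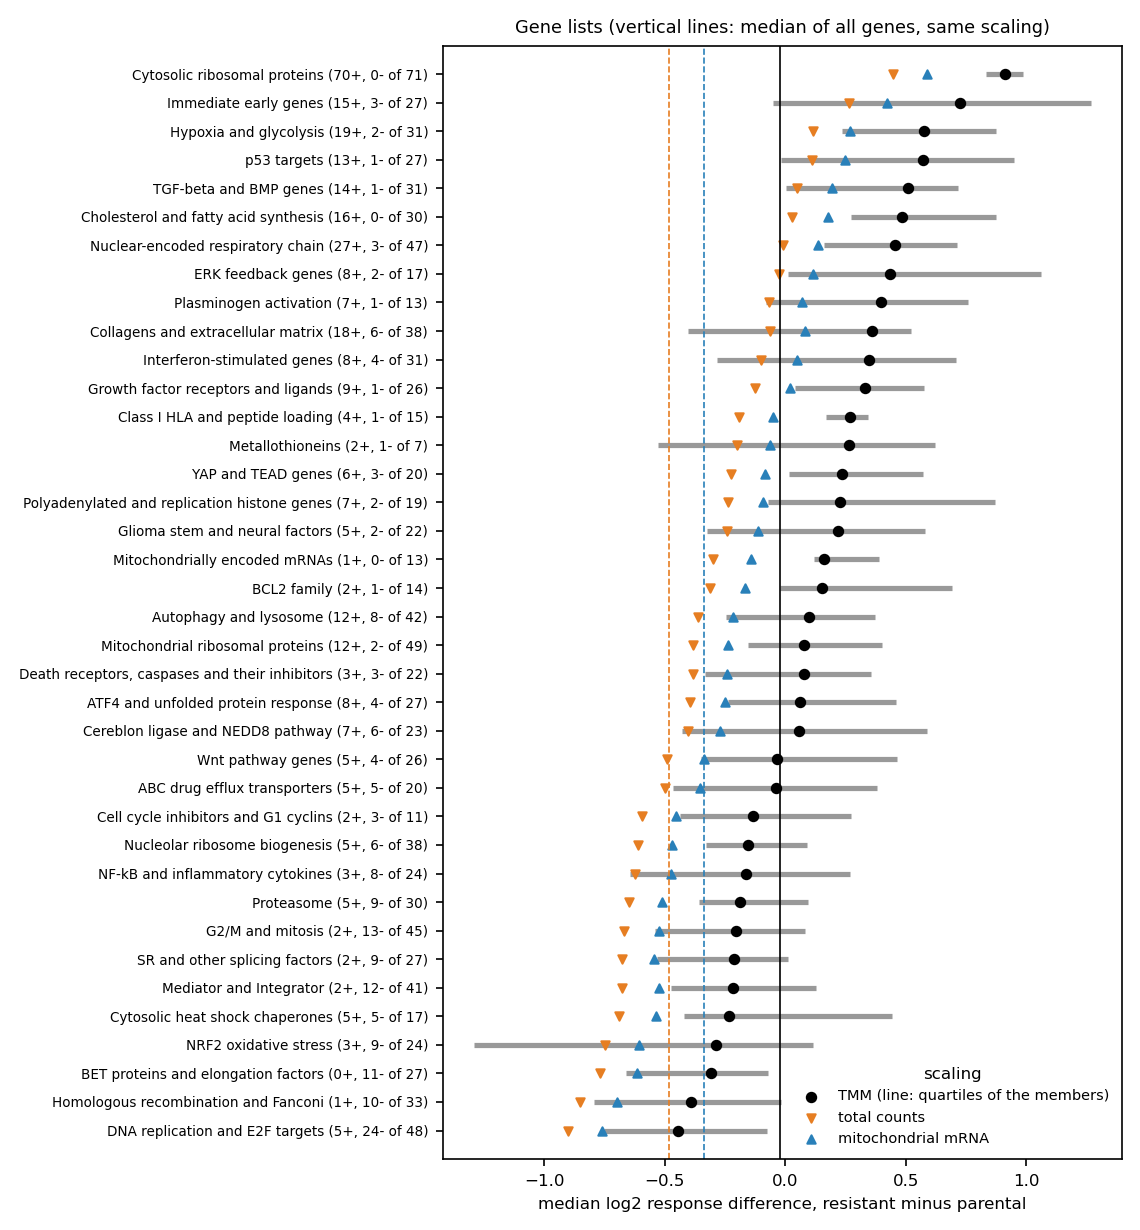
Median log2 response difference of the 38 lists by TMM (black, with the quartiles of the members as grey lines), by total counts (orange) and by mitochondrial scaling (blue). Vertical lines give the median of all genes by the same scaling, -0.02, -0.48 and -0.34, and every list moves left with them.

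Cholesterol and fatty acid synthesis gave 16 positive and 0 negative differences among 30 by TMM, with a median of 0.49. With total counts it gave 10 and 1 and a median of 0.03, and with mitochondrial scaling 4 and 0 and 0.18. MSMO1, a sterol demethylation enzyme, rose in resistant cells and fell in parental cells. MSMO1 had 20.1 and 20.9 CPM in resistant dBET6 libraries, 8.69 and 8.05 in resistant DMSO, 8.94 and 7.54 in parental dBET6 and 13.7 and 14.1 in parental DMSO libraries. This gave a log2 fold change of 1.29 ± 0.12 in resistant and -0.75 ± 0.13 in parental cells, and the MSMO1 difference was 2.04 ± 0.18 (SE, adjusted p = 4.44e-10). DHCR7, the last step of cholesterol synthesis, had 1.46 ± 0.13, and ABCA1, a cholesterol exporter of the transporter list, 1.47 ± 0.13. Hypoxia and glycolysis genes gave 19 positive and 2 negative among 31 by TMM, with a median of 0.57, beside 49.2% positive and 9.30% negative among all genes above 100 CPM. With total counts they gave 8 and 6 and a median of 0.11, and with mitochondrial scaling 6 and 2 and 0.27. GPI, the second enzyme of glycolysis, ALDOC, an aldolase, and PFKFB3, which makes the activator of phosphofructokinase, had 1.12 ± 0.13, 1.43 ± 0.16 and 1.08 ± 0.13.

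Each list of stress genes held differences in both directions by TMM. NRF2 genes, which answer oxidative stress, rose in 18 of 24 members in resistant and 21 in parental cells by TMM (13 and 19 with total counts, 9 in each line with mitochondrial scaling). They gave 3 positive and 9 negative differences, with a median of -0.29 (2 and 18 with total counts, 1 and 10 with mitochondrial scaling). SRXN1, sulfiredoxin, rose more in parental cells. SRXN1 had 903 and 882 CPM in resistant dBET6 libraries, 46.3 and 46.1 in resistant DMSO, 2562 and 2475 in parental dBET6 and 52.5 and 55.7 in parental DMSO libraries. The log2 fold change was 4.27 ± 0.10 in resistant and 5.54 ± 0.10 in parental cells, and the SRXN1 difference was -1.27 ± 0.12 (SE, adjusted p = 3.8e-09). OSGIN1 and the aldo-keto reductase AKR1C1 had -1.36 ± 0.14 and -2.06 ± 0.18, and AKR1C1 was rebuilt at 0.526 of the deposited FPKM and has near-identical paralogs. The ATF4 and unfolded protein list gave 8 positive and 4 negative among 27 (5 and 13 with total counts, 5 and 4 with mitochondrial scaling), with DDIT3, which encodes CHOP, at 2.14 ± 0.16, ATF3 at 1.24 ± 0.15 and the membrane protein gene HERPUD1 at -1.36 ± 0.13. Heat shock chaperones gave 5 and 5 among 17 (1 and 11 with total counts, 0 and 4 with mitochondrial scaling), with HSPA8 at -1.04 ± 0.13 and the co-chaperone BAG3 at 0.83 ± 0.13, a call lost with mitochondrial scaling (0.52).

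Growth and matrix lists held more positive than negative differences by TMM, which did not hold for each of them by the other scalings. Immediate early genes gave 15 positive and 3 negative among 27, with a median of 0.73 (12 and 6 with total counts, 10 and 3 with mitochondrial scaling), and KLF10, ARC and CYR61 had 2.31 ± 0.13, 1.71 ± 0.14 and 1.48 ± 0.13. ERK feedback genes gave 8 and 2 among 17, with a median of 0.43 that was -0.03 with total counts (6 and 6, and 4 and 2 with mitochondrial scaling), and DUSP10, a phosphatase, had 2.12 ± 0.21. TGF-beta and BMP genes gave 14 and 1 among 31, with a median of 0.51 (5 and 6 with total counts, 4 and 1 with mitochondrial scaling). SMAD3, a signal transducer of the TGF-beta receptor, had 1.13 ± 0.13 and fell in both lines. Collagen and matrix genes gave 18 and 6 among 38, with a median of 0.36 that was -0.06 with total counts (8 and 9, and 4 and 6 with mitochondrial scaling) and 0.23 without parental dBET6 replicate 2. TIMP1, an inhibitor of matrix proteases, had 1.10 ± 0.13. THBS1, thrombospondin, had 3.04 ± 0.35 at low levels, a call lost with the deposited FPKM (0.88). Plasminogen activation genes gave 7 and 1 among 13 (3 and 2 with total counts, 1 and 1 with mitochondrial scaling). Growth factor receptors and ligands gave 9 and 1 among 26, but 1 and 7 with total counts and 1 and 1 with mitochondrial scaling. Its positive members were 4 without parental dBET6 replicate 2 and 5 without resistant DMSO replicate 2.

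**Figure D4:**
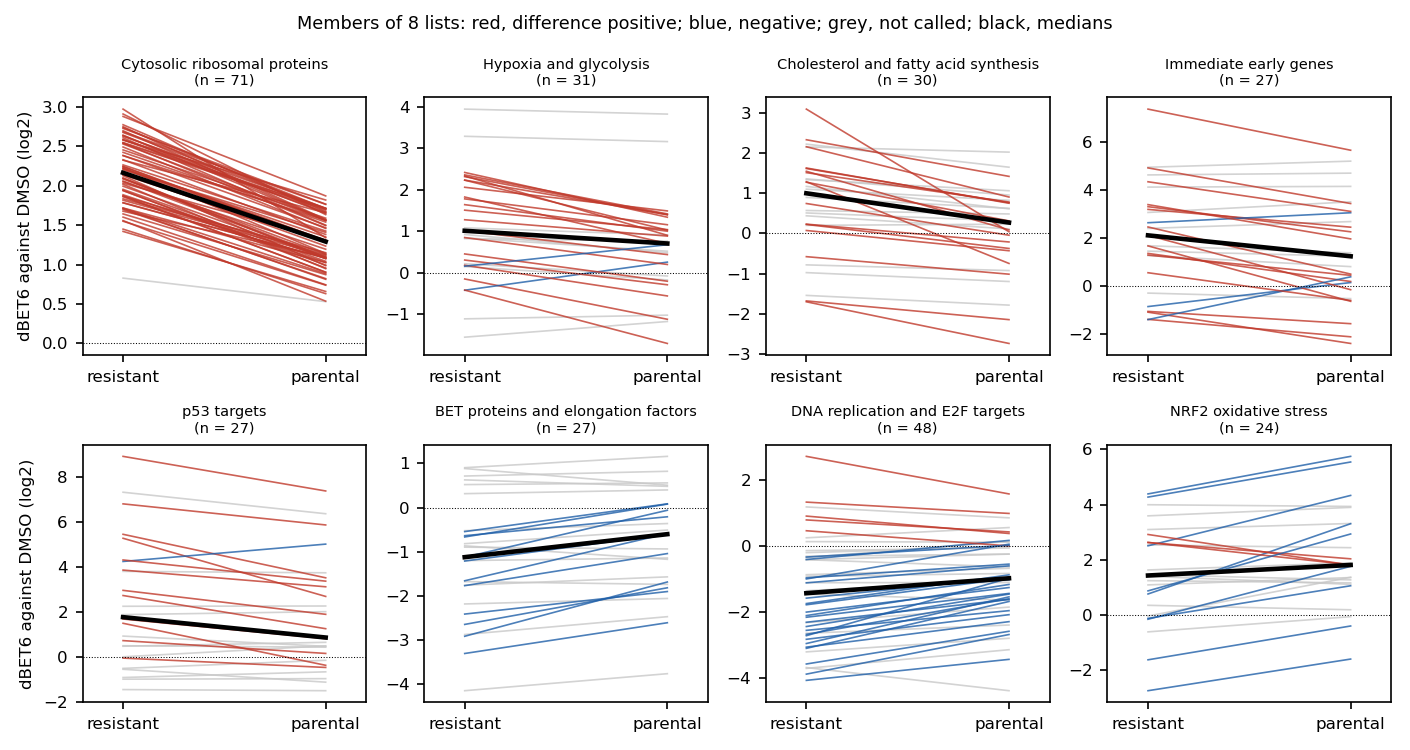
Log2 response to dBET6 of each tested member of 8 lists, in resistant cells (left) and parental cells (right). Red lines are members with a positive, blue lines with a negative and grey lines with no called difference, and black lines join the medians. Nearly all ribosomal protein lines slope down to the right, and most replication lines that were called slope up.

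Inflammatory genes were mixed. Over all genes 15% were positive and 13.7% negative by TMM. NF-kB and cytokine genes gave 3 positive and 8 negative differences among 24, with a median of -0.16 (1 and 12 with total counts, 1 and 7 with mitochondrial scaling). That median was 0.03 without parental DMSO replicate 1 or resistant DMSO replicate 2, -0.11 without parental DMSO replicate 2, -0.01 without parental dBET6 replicate 2, -0.29 without resistant dBET6 replicate 1 and -0.01 with the deposited FPKM, so it has no stable sign, and 5 members were negative without resistant dBET6 replicate 2. NFKBIZ, a regulator of NF-kB, had 1.25 ± 0.16, a call lost with the deposited FPKM (0.69). Interferon-stimulated genes gave 8 and 4 among 31 (3 and 7 with total counts, 1 and 4 with mitochondrial scaling, 2 and 3 with the deposited FPKM), with OAS3, of antiviral RNA decay, at 1.01 ± 0.14 and IRF7 at -1.07 ± 0.18, both lost with the deposited FPKM (0.88 and -0.68), and OAS3 also with mitochondrial scaling (0.69). Of this list 5 were positive without either parental dBET6 library, parental DMSO replicate 1 or resistant DMSO replicate 1. Class I HLA and peptide loading genes gave 4 and 1 among 15 (0 and 4 with total counts, 0 and 1 with mitochondrial scaling), with NLRC5, a regulator of class I genes, at -1.12 ± 0.16. YAP and TEAD genes gave 6 and 3 among 20 (2 and 3 with total counts, 2 and 3 with mitochondrial scaling), with LATS2, a kinase of that pathway, at -1.09 ± 0.16. CYR61, also of that list, went the other way with 1.48 ± 0.13. Wnt genes gave 5 and 4 among 26 (3 and 9 with total counts, 2 and 4 with mitochondrial scaling), with DKK1, a Wnt antagonist, at 2.33 ± 0.33. Autophagy and lysosome genes gave 12 and 8 among 42 (1 and 20 with total counts, 1 and 8 with mitochondrial scaling), with the protease CTSD at 1.07 ± 0.13, and 6 or 7 were positive without either resistant dBET6 library or resistant DMSO replicate 2. Glioma stem and neural factors gave 5 and 2 among 22 (1 and 4 with total counts, 1 and 1 with mitochondrial scaling), with NES at 0.75 ± 0.13 and the neural factor POU3F2 at 3.98 ± 0.51. POU3F2 was near 0 in resistant DMSO libraries, and its value was 3.23 without resistant DMSO replicate 1 and 5.27 without resistant DMSO replicate 2. The NES call was lost with total counts and mitochondrial scaling (0.29 and 0.43). Histone genes gave 7 and 2 among 19 (4 and 6 with total counts, 2 and 2 with mitochondrial scaling), and HIST2H2BE, an H2B gene with near-identical copies, had 1.87 ± 0.16. SERPINI1, neuroserpin, rose in both lines with a difference of -0.14 ± 0.43 (adjusted p = 0.849), which passed with log2(FPKM + 1) (-1.05) and in neither of the other FPKM fits.

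Counts of the other lists were as follows. By TMM 15% of all genes were positive and 13.7% negative, and shares near these do not set a list apart. Such shares were 13.2% and 15.8% for nucleolar ribosome biogenesis and 13.6% and 13.6% for death receptors and caspases. Mitochondrial ribosomal proteins gave 12 positive and 2 negative among 49 by TMM, but 1 and 25 with total counts and 0 and 1 with mitochondrial scaling. Nucleolar ribosome biogenesis gave 5 and 6 among 38 (2 and 30 with total counts, 0 and 6 with mitochondrial scaling), and drug efflux transporters 5 and 5 among 20 (1 and 10 with total counts, 1 and 5 with mitochondrial scaling), of which 3 were positive without parental DMSO replicate 2, parental dBET6 replicate 2 or any 1 of the resistant libraries. Death receptors and caspases gave 3 and 3 among 22 (0 and 9 with total counts, 0 and 3 with mitochondrial scaling), cell cycle inhibitors and G1 cyclins 2 and 3 among 11 (1 and 6 with total counts, 0 and 3 with mitochondrial scaling), and metallothioneins 2 and 1 among 7 (0 and 2 with total counts, 0 and 1 with mitochondrial scaling).

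The difference for dBET6 was then set against that for JQ1, the BET inhibitor to which the labels call the line resistant. Both differences use the same DMSO libraries, which cancel in the test of dBET6 against JQ1, so only that test is given as a comparison. In it 5751 of 19093 genes passed (30.1%), and 2791 of them had a more positive difference with dBET6 (14.6%) and 2960 a more negative one (15.5%). The more positive share of these calls was 48.5%, and it was 17.6% with total counts and 45.7% with mitochondrial scaling. For MYC the difference was 2.26 ± 0.13 with dBET6 and 0.58 ± 0.12 with JQ1, and the 2 differed by 1.66 ± 0.12. CSF3 had -3.25 ± 0.18 with dBET6 and 1.36 ± 0.15 with JQ1, a change of sign, and differed by -4.63 ± 0.19. E2F1 had -1.05 ± 0.13 and 0.33 ± 0.13 and differed by -1.41 ± 0.13. TP53I3 had 2.59 ± 0.16 and -0.15 ± 0.16, differing by 2.71 ± 0.15.

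For other genes dBET6 and JQ1 did not differ past the threshold. NECAB2 had -3.13 ± 0.22 with dBET6 and -3.25 ± 0.29 with JQ1, differing by 0.10 ± 0.24 (adjusted p = 0.834), and HAS1, THBS1 and TIMP1 differed by 0.34 ± 0.34, 0.31 ± 0.36 and -0.19 ± 0.13. These values do not show that the compounds act alike. Among lists, 65 of 71 ribosomal protein genes were more positive with dBET6 and 0 more negative. For replication genes the counts were 3 and 31 among 48, for hypoxia and glycolysis 20 and 0 among 31, and for cholesterol and fatty acid synthesis 15 and 0 among 30. Over all genes the shares were 14.6% and 15.5%. These list counts are by TMM and were not made with the other scalings. A mean above 100 CPM was reached by 70 of the 71 ribosomal protein genes and 19 of the 31 hypoxia and glycolysis genes. For replication genes the count was 14 of 48 and for cholesterol and fatty acid synthesis 10 of 30. The part of abundance was not tested.

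**Figure D5:**
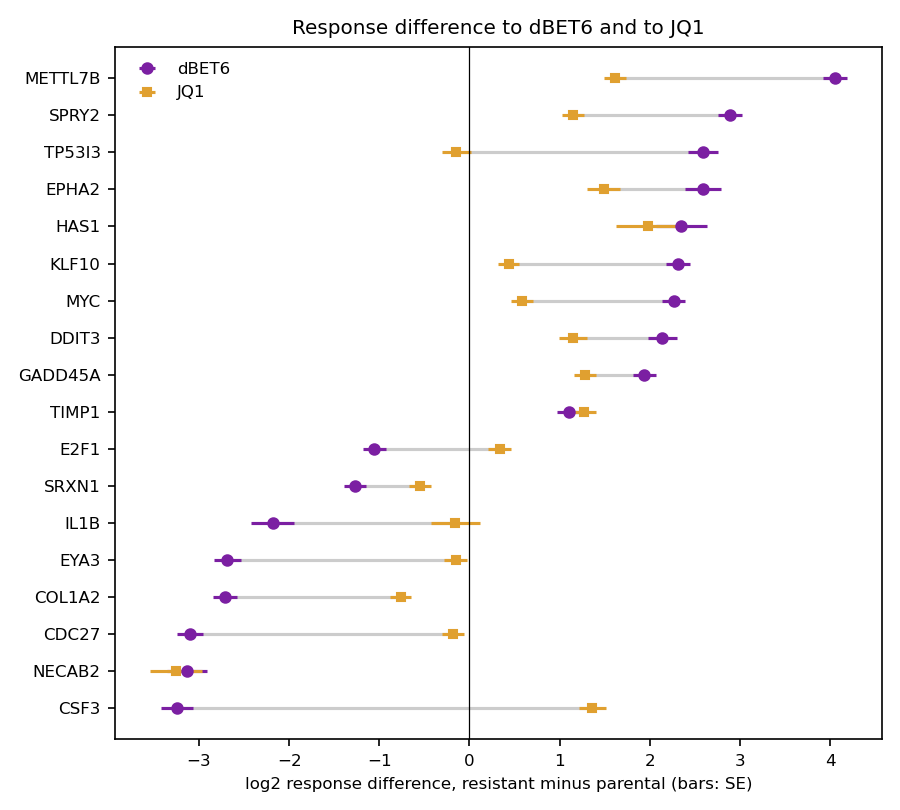
Log2 response difference between the lines (resistant minus parental) to dBET6 (circles) and to JQ1 (squares) for 18 genes named in the text, with SE bars. The 2 values share DMSO libraries. CSF3 and E2F1 lie on opposite sides of 0 for the 2 compounds, and NECAB2, HAS1 and TIMP1 have values close together.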

How the data were processed

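PolyA RNA of 12 libraries was measured, and the 8 with dBET6 or DMSO entered the comparison. The deposited estimated counts per transcript come from kallisto per the submitters' processing notes, with no normalization, and the deposited TPM values beside them per the file headers are relative abundances, used only to check the pairing with genes. The deposited FPKM values form 1 gene table, for which the submitters' processing notes list kallisto, DESeq2 and build hg19. No tool versions are stated there.

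Of 196354 transcripts 92.1% were paired with genes through GENCODE, taking 94.7% to 96.2% of the counts of a library. Rebuilt values of 10511 genes were set against the deposited FPKM, with 79.7% inside a 1% tolerance and 5.99% under 0.8 of it. For this check each library was first scaled by its median ratio, so it speaks only for relative levels within a library. Deposited FPKM summed to 649818 to 685757 in DMSO and 1.71e+06 to 2.30e+06 in dBET6 libraries. Counts were summed per gene, rounded, filtered with filterByExpr, scaled by TMM and tested with edgeR (4.0.16, R 4.3.3, robust quasi-likelihood), 1 mean per group, 4 residual degrees of freedom, Benjamini-Hochberg threshold 0.05. CPM are TMM-scaled unless stated, errors of log2 values are SE, and the biological coefficient of variation was 7.98%. JQ1 comparisons used 1 fit of all 12 libraries. Alternatives used DESeq2 (1.42.0), limma (3.58.1), other scalings and filters, and leaving out each library.

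On simulated data with 200 changed genes among 18469, 28.4%, 58.6% and 87.3% of response differences of 1.5-, 2- and 4-fold were recovered, and 8.00% of calls were false, which is above the nominal 5%. The changed genes were drawn from those above a minimum fitted count. In the data 5302 genes were called (28.7%), and the adjusted threshold is stricter where fewer genes change. The simulated shares therefore do not give the recovery in the data.

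Members, lists and tests were chosen with earlier results of these data known. The rule for naming genes took, among called protein-coding genes whose mean reached 5 CPM and whose library differences did not overlap between the lines, the 4 most positive and 4 most negative differences in each of 4 classes, 12 genes of interest and up to 3 genes per list. The 99 genes the text prints are a part of these and were picked after values were seen. RP11-644F5.10, which the rule names, was left out because its rebuilt level did not match the deposited FPKM, and some other genes the rule names are not reported here. The motifs were searched for after the list results were seen, and all 3 searched are reported.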

Additional observations from a re-analysis of the deposited data

Results flagged for a closer look

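The response to dBET6 differed between the resistant and the parental line, by the test of the difference itself (edgeR, adjusted p under 0.05), for 94 of the genes named in the report, 52 with a positive and 42 with a negative difference. Values are log2 response differences, resistant minus parental. Over all genes 28.7% passed the same test, so passing it does not set these genes apart. The genes were picked partly for the size of their difference.

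Of the positive ones, the furthest from 0 were RASD2 (5.20), UBE2K (4.80), PLEKHA6 (4.64), METTL7B (4.05), POU3F2 (3.98), DUSP8 (3.72), PCDH7 (3.11), CCR1 (3.06), THBS1 (3.04), SPRY2 (2.89) and EPHA2 (2.59). Next among the positive differences were TP53I3 (2.59), ZNF365 (2.36), HAS1 (2.35), DKK1 (2.33), FOXC2 (2.31), KLF10 (2.31), MYC (2.26), DDIT3 (2.14), DUSP10 (2.12), MSMO1 (2.04) and GADD45A (1.94). Then came NAGS (1.93), GDF15 (1.87), HIST2H2BE (1.87), ARC (1.71), CYR61 (1.48), ABCA1 (1.47), DHCR7 (1.46), ALDOC (1.43), RPS29 (1.27), NFKBIZ (1.25) and ATF3 (1.24). Smaller positive values belonged to RPL13A (1.18), TK1 (1.14), SMAD3 (1.13), GPI (1.12), TIMP1 (1.10), PFKFB3 (1.08), CTSD (1.07), OAS3 (1.01), COX8A (0.96), CDKN1A (0.94) and COX6A1 (0.94). The rest of this direction were APAF1 (0.92), PSMC4 (0.89), BAG3 (0.83), NEDD8 (0.80), NES (0.75), DDB1 (0.74), BBC3 (0.74) and HRK (0.63).

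Of the negative ones, the furthest from 0 were FBXW10 (-4.09), ZBTB41 (-3.44), UPB1 (-3.39), CSF3 (-3.25), NECAB2 (-3.13), CDC27 (-3.10), IRF5 (-3.05), COL1A2 (-2.71), EYA3 (-2.69), KATNBL1 (-2.49) and ARHGEF26 (-2.32). Next among the negative differences were IL1B (-2.18), COQ2 (-2.17), AKR1C1 (-2.06), BARD1 (-1.88), HKDC1 (-1.86), MUTYH (-1.83), E2F2 (-1.74), C21orf58 (-1.62), EXO1 (-1.47), CDC6 (-1.41) and OSGIN1 (-1.36). Then came HERPUD1 (-1.36), PSMA4 (-1.31), SRXN1 (-1.27), MEPCE (-1.23), CCNA2 (-1.21), DCUN1D1 (-1.18), TOP2A (-1.14), NLRC5 (-1.12), CCND3 (-1.09), LATS2 (-1.09) and CCNT2 (-1.07). Smaller negative values belonged to CDK1 (-1.07), IRF7 (-1.07), HEXIM1 (-1.06), E2F1 (-1.05), HSPA8 (-1.04), CRBN (-1.01), BCL2L11 (-1.01), FADD (-0.83) and BRD3 (-0.51).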

How the results depend on the processing

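The number of genes with a response difference was 5302, and it was 3109 with mitochondrial scaling, 2922 and 2606 with limma on log2(FPKM + 1) and log2(FPKM + 0.1), 1844 with no FPKM filter and 1134 against a fold of 1.5. The test of dBET6 against JQ1 gave 5751 genes, and 2005 with mitochondrial scaling, 3779 with log2(FPKM + 0.1), 3618 with no FPKM filter and 1323 against a fold of 1.5. With a mean of at least 10 CPM, which tests fewer genes, 7705 passed in resistant and 7560 in parental cells. The cause of the other shifts was not tested. With 1 library left out the response difference gave 4172 to 4933 genes, the responses 13447 to 14689 in resistant and 13753 to 14996 in parental cells, and dBET6 against JQ1 4686 to 5777.

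The replicate block gave 4996 genes for the response difference, 14099 and 14253 for the resistant and parental responses and 5619 for dBET6 against JQ1, and it moved no call of a gene in the text. Replicate numbers were not taken as pairs, since correlations of the replicate differences between groups ran from -0.25 to 0.28 and the labels give no shared batch.

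Direction turned for COQ2 (0.637, 0.68 and 0.637), CCND1 (0.0834, 0.0846 and 0.0834) and BCL2L11 (0.354, 0.394 and 0.354) in the 3 FPKM fits, for BCL2L1 (-0.0669) and CDK6 (-0.142) with total counts, and for SERPINI1 without parental DMSO replicate 1 (0.00373) or resistant DMSO replicate 1 (0.0966), with -0.319 as its lowest value when a library was left out. The cause was not tested. Of 94 called genes in the text, 91 were called with each library left out in turn, all but CCR1, PCDH7 and BRD3. With no FPKM filter the calls of ZNF365, HKDC1, HEXIM1, E2F2, EXO1, HRK, NLRC5, LATS2, SMAD3 and POU3F2 were lost, and that of BBC3 was lost there and with log2(FPKM + 0.1). In the simulation, where 200 of 18469 genes were changed, most 1.5-fold differences were not recovered. Recovery in the data, where far more genes were called, was not measured.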
